A study of Homo sapiens with 15 samples.

Results

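Untreated PEO4 cells were compared with untreated PEO1 cells as a map of DNA copy number, using the 6 untreated libraries among the 15 libraries of the series (3 of PEO1 and 3 of PEO4). PEO1 and PEO4 are established lines from the same case of high-grade serous ovarian cancer, PEO1 sensitive and PEO4 resistant to platinum. The libraries came from Pt-exo-seq, in which exonucleases digest sheared genomic DNA until a platinum adduct stops them. The untreated cells of both lines received no cisplatin, so their reads come from DNA that survived digestion without platinum. The other groups were PEO1 at 16 µM cisplatin and PEO4 at 16 or 32 µM, with 3 libraries each. Each line was grown from 1 patient's cells, so a difference between the lines is a difference between these 2 cultures. Nothing says that libraries of a group came from separate cultures, so the spread between them may be technical.

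The members of the map were the 2914 bins of 1 Mb on chromosomes 1 to 22 that held a window, of which 2665 were tested because at least 500 of their windows of 1 kb held a read. The bins fell into 39 chromosome arms and 158 segments. Library totals were 31.5 M to 34.9 M counts in untreated PEO1 and 35.1 M to 48.6 M in untreated PEO4, and the median tested bin held 12037 to 18091 counts in a library. Counts were divided by library totals, giving CPM (counts scaled per M counts of the library) or a percent share, and ratios are log2 of PEO4 over PEO1. As a scale for these ratios, 2 copies against 1 would give 1.00, 3 against 2 would give 0.58, 4 against 3 would give 0.42 and 4 against 1 would give 2.00. Because counts were divided by library totals, this scale assumes the same mean copy number over the genome in both lines. Neither that mean nor copies themselves were measured. Positions are on hg19 (GRCh37), in Mb from the start of the chromosome.

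Cancer cells gain and lose stretches of chromosome when breaks are misrepaired or chromosomes missegregate. High-grade serous ovarian cancer is known for many such changes: defects of homologous recombination are frequent, and genes such as MYC, CCNE1, MECOM and PIK3CA are often gained. Reads of genomic DNA from a region rise and fall with its copies, and a segment is a run of bins between steps in that level. Lines from the same patient can share steps made before they diverged and carry others that only 1 of them has.

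PEO4 and PEO1 differed over much of the genome in these libraries. At an edgeR adjusted p under 0.05, 1570 of 2665 bins were called, or 58.9%, with 617 higher in PEO4 (23.2%) and 953 lower (35.8%). The 3 libraries of each line did not overlap in 644 higher bins (24.2%) and 1132 lower bins (42.5%). The median ratio of all tested bins was -0.07. With TMM factors, which shifted that median by 0.05, 1205 bins were called and 56.9% of the calls were higher, against 39.3% with library totals. In the 16 µM libraries, which had no part in choosing bins, 625 bins (23.5%) were called between the lines, 360 higher (13.5%) and 265 lower (9.94%). All 625 were also called in the same direction in the untreated libraries, with and without correction for GC content.

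**Figure D1:**
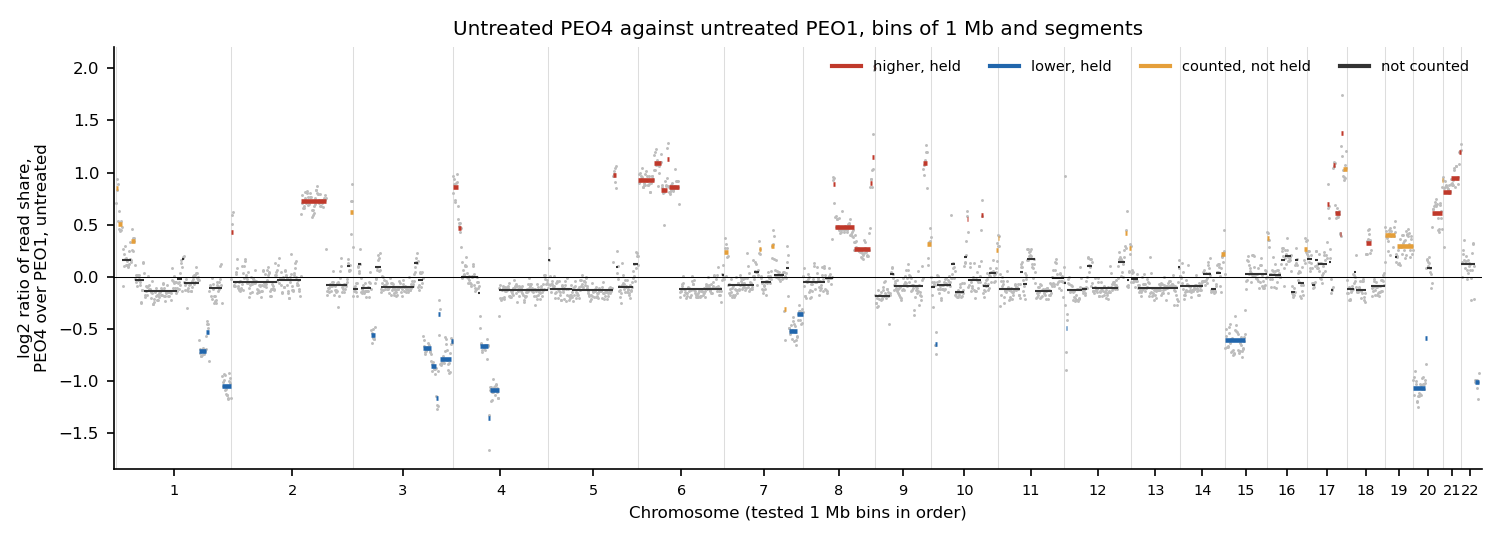
Each grey point is a tested 1 Mb bin in genome order, with the log2 ratio of its read share in untreated PEO4 over untreated PEO1 (mean of 3 libraries each), and lines are the 158 segments. Red and blue lines are the 29 higher and 21 lower segments that kept a ratio of at least 0.2 with GC correction and were called at 16 µM in the same direction with at least 0.2, orange lines are the other 20 counted segments, and black lines are segments that were not counted.

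At the level of whole arms, 32 of 39 (82.1%) were called at an edgeR adjusted p under 0.05, 12 higher (30.8%) and 20 lower (51.3%). The libraries of a line differed little over a whole arm, so an arm was described as different in size only where its ratio was at least 0.2 from 0 and the 3 libraries of each line did not overlap. This left 8 higher arms (20.5%), namely 4p, 6p, 8q, 17q, 19p, 19q, 20q and 21q, and 6 lower arms (15.4%), namely 1q, 3q, 4q, 15q, 20p and 22q. The exact two-sided permutation p was 0.1 for each of the 14, the smallest value that 3 libraries against 3 can give. The arms just outside were 2q at 0.19 and 12p at -0.19.

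Arm 20p was the lowest. It took 1.06%, 1.07% and 1.07% of the counts of the PEO1 libraries and 0.537%, 0.531% and 0.537% of the PEO4 libraries, a log2 ratio of -1.0 ± 0.00857 (SE, edgeR adjusted p 6.06e-09). Arm 6p was the highest, with 1.2%, 1.22% and 1.21% in PEO1 libraries against 2.36%, 2.35% and 2.37% in those of PEO4, a ratio of 0.96 ± 0.00832 (edgeR adjusted p 6.06e-09). Each line's libraries lay within a narrow band on these arms, far from those of the other line. Arm 21q took 0.67%, 0.669% and 0.672% in PEO1 and 1.3%, 1.29% and 1.29% in PEO4, a ratio of 0.95 ± 0.00626 (edgeR adjusted p 4.51e-09). On 6p and 21q every PEO4 library lay above every PEO1 library by close to the same ratio.

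The other size differences were smaller. Among the higher arms, 17q had a ratio of 0.60, 20q of 0.48, 8q of 0.43, 19p of 0.37, 4p of 0.31 and 19q of 0.30. Among the lower arms, 3q had a ratio of -0.49, 4q of -0.42, 1q of -0.34, 15q of -0.30 and 22q of -0.28. The libraries of 17q spread more than those of 6p, with 1.91%, 2.14% and 2.1% in PEO1 against 3.15%, 2.99% and 3.22% in PEO4.

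GC content moved with part of these arm ratios. The untreated libraries differed in how their counts depended on the GC content of a bin, and over 2665 bins, which share these libraries, the untreated ratio and GC had a Pearson r of 0.347. With a GC correction fitted within arms, 19p fell to 0.08 and 19q to 0.10, under the size limit, and 22q moved to -0.51, while 2q reached 0.22. At 16 µM the ratios were 0.08 on 19p and 0.12 on 19q with overlapping libraries, and -0.49 on 22q without overlap. The other 11 arms had the same direction and at least 0.2 in all 3 readings, and 6p (0.96, 0.95 and 0.96), 20p (-1.0, -1.0 and -0.99) and 21q (0.95, 0.93 and 0.93) hardly moved.

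**Figure D2:**
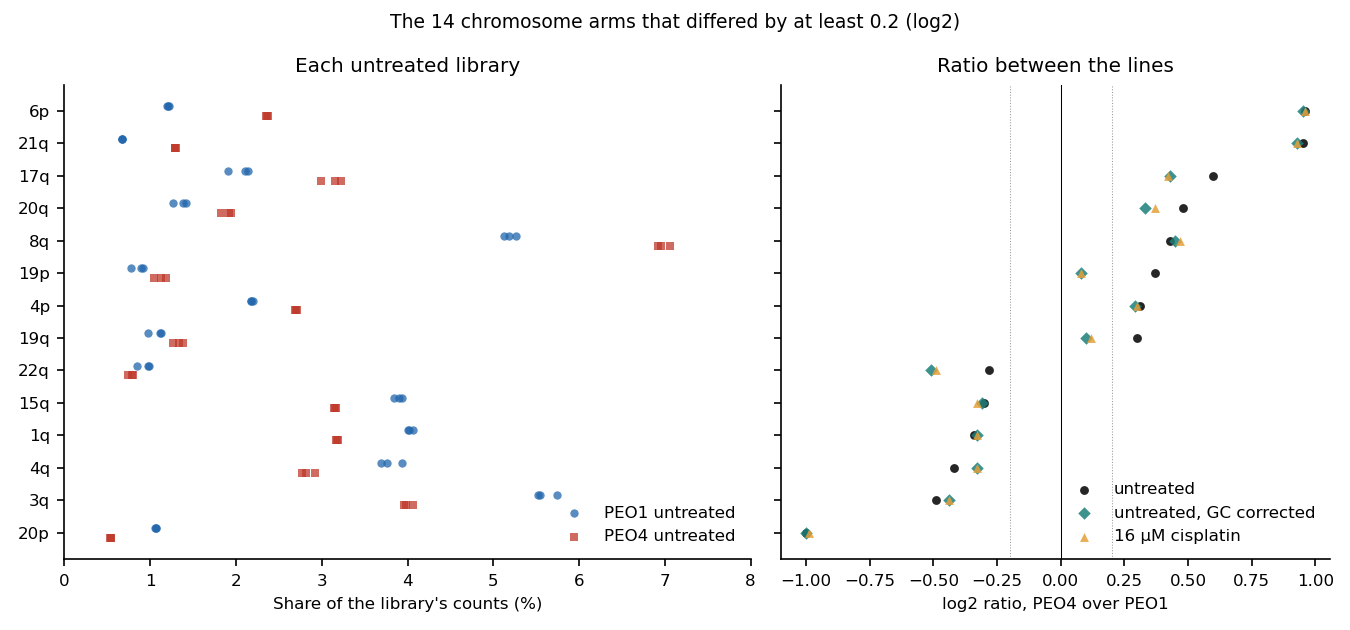
The left panel shows the percent share of each untreated library's counts on the 14 arms whose ratio was at least 0.2 (3 blue circles for PEO1, 3 red squares for PEO4). The right panel gives the log2 ratio of PEO4 over PEO1 untreated (black), untreated with GC correction (teal) and at 16 µM (orange), with dotted lines at 0.2 either side of 0: 19p and 19q lie inside the dotted lines in the latter 2 readings.

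Segments resolved the arms into blocks. Of 158 segments, 48 (30.4%, 482 Mb) were counted as higher in PEO4 and 22 (13.9%, 253 Mb) as lower, together 27.6% of the tested genome. Since these ratios chose the segments, they are a description, and the 16 µM libraries gave the test: 57 segments (36.1%) were called there at an edgeR adjusted p under 0.05, 31 higher (19.6%) and 26 lower (16.5%). Of the counted segments, 29 of 48 higher and 21 of 22 lower were called at 16 µM in the same direction, and none in the opposite direction. The smallest counted ratios were 0.22 and -0.31, and 13 uncounted segments lay within 0.05 of the limit of 0.2.

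The segments were divided, after their values had been seen, into held and other ones. A held segment was counted, kept a ratio of at least 0.2 with GC correction, and was called at 16 µM in the same direction with at least 0.2. There were 50 held segments on 23 arms of 17 chromosomes, 29 higher (342 Mb) and 21 lower (250 Mb), or 22.2% of the tested genome. Chromosomes 11, 13, 14, 16 and 19 had none, and chromosomes 4, 10 and 20 had held segments in both directions. The 19 higher segments that were not held lay in GC-rich DNA, with a median GC of 50.7% against 42.3% in the held ones, and their median ratio was 0.34 untreated and 0.07 at 16 µM. Of these, 13 fell under 0.2 with GC correction, and the other 6 kept 0.22 to 0.59 with it and had 0.21 to 0.62 at 16 µM but were not called there (edgeR adjusted p 0.0717 to 0.699). Those 6 were on 1p (3 of them, from 0 to 12 Mb and from 31 to 37 Mb), at the ends of 2q and 20q, and on 17q. The 19 segments include the ends of 1p, 7p, 9q, 10q, 11p, 14q, 16p, 16q and 20q and most of chromosome 19. Segments described here beyond the 8 highest and 8 lowest counted ones were picked after their values were seen. For 17q from 73 to 81 Mb, which holds BIRC5, an inhibitor of apoptosis, the ratio stayed high in every reading (1.03 untreated, 0.59 with GC correction, 0.62 at 16 µM) but the edgeR adjusted p at 16 µM was 0.0717.

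A ratio does not say which line moved, so each line was also set against its own median bin. This own level is the log2 of the line's counts per window with a read, with GC removed within arms, minus that of its median bin, whose copy number is not known. Among the 50 held segments, PEO1 alone was at least 0.3 from its median in 28, PEO4 alone in 13, both in 8 and neither in 1. PEO1 alone lay below its median in 14 segments (198 Mb, median own level -0.91) and above it in 14 (174 Mb, median 0.58). PEO4 alone lay above in 9 (85 Mb, median 0.62) and below in 4 (61 Mb, median -0.95). So more of the held segments were at the median level of PEO4 than at that of PEO1. This reading and its limits of 0.3 and, further down, 0.5 were chosen after the values were seen.

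**Figure D3:**
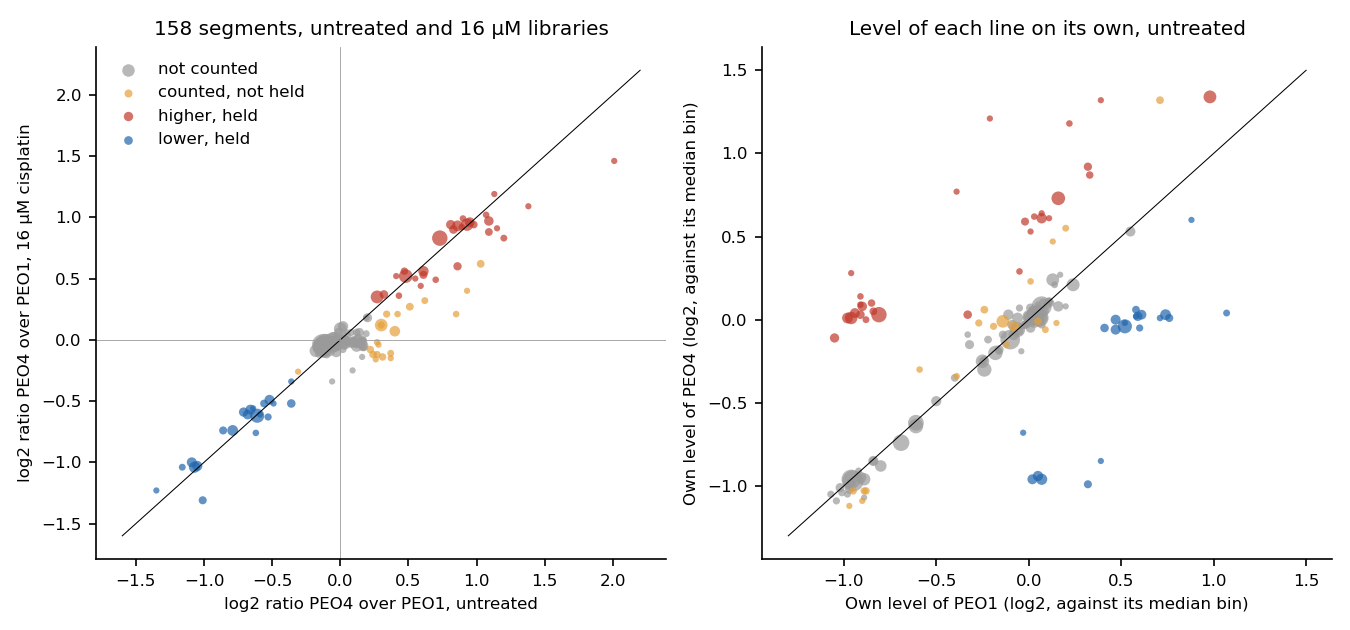
Each point is 1 of 158 segments, larger for more bins. The left panel plots the log2 ratio of PEO4 over PEO1 at 16 µM against that in the untreated libraries that chose the segments, with the diagonal as a line: red and blue segments lie near it, and orange ones, counted but not held, mostly lie below it. The right panel plots the own level of each untreated line (log2, against its median bin), where held segments lie off the diagonal and the grey group at the lower left, near -0.95 in both lines, is at the same low level in each. Held segments were chosen partly by their 16 µM and GC-corrected ratios. The places of held and other counted segments in both panels therefore follow in part from that choice.

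The highest segment was the end of 8q, from 143 to 146 Mb, which holds RECQL4, a DNA helicase of replication and repair. Its CPM, given for a segment as the mean of its bins, were 215, 273 and 293 in the PEO1 libraries against 1089, 954 and 1081 in those of PEO4, a ratio of 2.01. The PEO4 libraries lay far above those of PEO1, but GC content in this segment was 55.6% and the ratio fell to 1.39 with GC correction. At 16 µM it was 1.46 ± 0.23 (SE, edgeR adjusted p 0.00358), and PEO4 at 32 µM gave 1.53 against the same PEO1 libraries at 16 µM. The own level was -0.21 in PEO1 and 1.21 in PEO4. The 3 bins of highest ratio in the genome lay here, at 2.02, 2.00 and 1.98, and the highest of them holds GSDMD, which forms membrane pores in pyroptosis, and SCRIB, a cell polarity gene.

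The rest of 8q beyond 63 Mb was higher in PEO4 in blocks. The ratio was 0.89 from 63 to 67 Mb, 0.48 from 67 to 104 Mb, 0.27 from 104 to 136 Mb, 0.90 from 136 to 140 Mb and 1.15 from 140 to 143 Mb. The block with the lowest of these ratios, 104 to 136 Mb, contains MYC, the transcription factor that drives growth and proliferation, and it was high in both lines, with an own level of 0.98 in PEO1 and 1.34 in PEO4. PEO1 was above its median there and far less so beside it, at 0.16 from 67 to 104 Mb and 0.22 from 136 to 140 Mb, while PEO4 was at 0.73 and 1.18. The bin of MYC (chromosome 8, 128747680 to 128755197) had CPM of 840, 850 and 839 in PEO1 and 996, 1021 and 1014 in PEO4, a ratio of 0.26 ± 0.033 (SE, edgeR adjusted p 9.49e-05). The block from 140 to 143 Mb holds PTK2, which encodes focal adhesion kinase, and its own level was 0.39 in PEO1 and 1.32 in PEO4. Its last bin, from 142 to 143 Mb, was the fifth highest at 1.37 and holds PTP4A3, a phosphatase gene.

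On 17q, 6 neighbouring or near segments were higher, of which 5 were held. The segment from 70 to 73 Mb begins with the 1 Mb bin of SOX9, a developmental transcription factor. In bins of 10 kb, however, the step up lay at 70.26 Mb, beyond SOX9 (70117161 to 70122557). The ratio was 0.42 before that step, where SOX9 lies, and 1.53 after it. CPM of the segment were 279, 329 and 324 in the PEO1 libraries against 797, 738 and 804 in those of PEO4, a ratio of 1.38. It was 1.13 with GC correction and 1.09 ± 0.17 at 16 µM (SE, edgeR adjusted p 0.00351). PEO1 was below its median (-0.39) and PEO4 above it (0.77). In this segment the bin from 71 to 72 Mb reached 1.74, the fourth highest in the genome, and it holds the somatostatin receptor gene SSTR2.

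Further towards the centromere, 17q from 54 to 58 Mb had CPM of 202, 219 and 216 in PEO1 and 449, 437 and 452 in PEO4, a ratio of 1.07. It holds RAD51C, a gene of homologous recombination, and RPS6KB1, which encodes the S6 kinase below mTOR. Here PEO1 was low (-0.91) and PEO4 near its median (0.14). The next segment, 58 to 67 Mb, had a ratio of 0.61 but the reverse arrangement, with PEO1 near its median (-0.02) and PEO4 above it (0.59), and it holds PPM1D, a phosphatase that dampens the DNA damage response, and BRIP1, a helicase that works with BRCA1. The own level thus went up from the first of these segments to the next in both lines.

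Most of 6p was higher in PEO4 by close to the same ratio along its length. It was 0.93 from 0 to 30 Mb, 1.09 from 30 to 45 Mb, 0.83 from 45 to 56 Mb and 1.13 from 56 to 59 Mb, and with GC correction 0.94, 0.96, 0.91 and 1.22. The own level of PEO1 was -0.96, -0.90, -0.91 and -0.96, while that of PEO4 was 0.01, 0.08, 0.03 and 0.28. The block from 30 to 45 Mb had CPM of 196, 219 and 215 in PEO1 and 449, 432 and 460 in PEO4, and holds CCND3, a cyclin of the G1 phase, FANCE, a subunit of the Fanconi anaemia core complex, and BAK1, a pore former of apoptosis. The first 30 Mb hold E2F3, a cell cycle transcription factor, and ID4, an inhibitor of differentiation. On 6q the stretch from 62 to 83 Mb showed the same arrangement, at -0.98 in PEO1 and 0.01 in PEO4.

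All of 21q also lay low in PEO1. Its 3 segments had ratios of 0.81, 0.95 and 1.20 from the centromere outwards, which became 0.92, 0.96 and 0.85 with GC correction, and own levels of -1.05, -0.94 and -0.88 in PEO1 and -0.11, 0.04 and 0.00 in PEO4. ERG, RUNX1 and ETS2, all transcription factor genes, lie in the middle segment. The GC content of the 3 segments was 36.4%, 41.4% and 51.1%, and the order of their ratios followed it only before correction.

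Several blocks inside other arms were low in PEO1 and near the median in PEO4 as well. On 9q from 126 to 134 Mb the CPM were 188, 225 and 218 in the PEO1 libraries against 457, 426 and 471 in those of PEO4, a ratio of 1.09 (0.87 with GC correction), with LRRC8A, an essential subunit of the volume-regulated anion channel, which can carry cisplatin. The longest held segment was 2q from 141 to 190 Mb, with a ratio of 0.73 and 228, 212 and 216 CPM in PEO1 against 361, 372 and 355 in PEO4. It holds RIF1, a regulator of double-strand break repair, NFE2L2, the master factor of the antioxidant response, and LRP1B, a lipoprotein receptor gene often lost in cancers. On 5q from 131 to 138 Mb the ratio was 0.98, with RAD50 of the MRN complex, which senses double-strand breaks.

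Segments in which PEO4 alone lay above its median were found on 8q, 10q, 17q and 20q. On 20q from 41 to 60 Mb the CPM were 394, 433 and 424 in the PEO1 libraries against 644, 619 and 650 in those of PEO4, a ratio of 0.61, with own levels of 0.07 and 0.61. It holds AURKA, a mitotic kinase, and ZNF217, a transcriptional regulator often gained in cancers. On 4p both lines were above their median, at 0.32 and 0.92 from 0 to 10 Mb and at 0.33 and 0.87 from 10 to 17 Mb. On 10q the 2 higher blocks were short, 75 to 78 Mb with a ratio of 0.55 and 103 to 106 Mb with 0.59.

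Among the segments lower in PEO4, those on 3q lay at a high own level in PEO1. The segment from 165 to 170 Mb had CPM of 843, 775 and 776 in PEO1 and 355, 370 and 356 in PEO4, a ratio of -1.16, and was -1.05 with GC correction and -1.04 ± 0.08 at 16 µM (SE, edgeR adjusted p 0.000171). By bins of 1 Mb it holds MECOM, which encodes the EVI1 transcription factor, and PRKCI, a protein kinase of cell polarity. PEO1 was at 1.07 above its median here, and PEO4 at 0.04. Bins of it without the midpoint of any protein-coding gene were among the 5 lowest of the genome, at -1.27 (166 to 167 Mb) and -1.24 (168 to 169 Mb). The latter bin includes part of MECOM, which runs from 168801287 to 169381563. The neighbours on 3q had lower peaks in PEO1: 0.61 from 140 to 156 Mb, 0.76 from 156 to 165 Mb, 0.88 from 170 to 173 Mb, 0.74 from 173 to 194 Mb and 0.71 from 194 to 198 Mb. PEO4 stayed within 0.04 of its median on each of these but 170 to 173 Mb, where it was also high at 0.60 and the ratio was only -0.36.

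PIK3CA, the catalytic subunit of a lipid kinase that activates AKT, and SOX2, a stem cell transcription factor, lie in the segment from 173 to 194 Mb, with a ratio of -0.79 and CPM of 671, 647 and 645 in PEO1 against 378, 383 and 378 in PEO4. The bin of PIK3CA (chromosome 3, 178865902 to 178957881) had a ratio of -0.82 ± 0.044 (edgeR adjusted p 2.46e-07) and that of MECOM (168801287 to 169381563) had -0.90 ± 0.040 (edgeR adjusted p 7.75e-08). MECOM and PRKCI share a bin and so share a value. In bins of 10 kb, however, a step lay between them at 169.70 Mb. The ratio was -1.22 before it, where MECOM lies, and -0.38 after it, where PRKCI lies (169940212 to 170023765). The shared value therefore blends both levels. ATR, the kinase that answers stalled replication forks, lies in the 140 to 156 Mb segment.

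PEO1 was also above its median, and PEO4 near its own, in the lower segments of 15q, 7q, 3p and parts of 1q and 4q. From 20 to 61 Mb on 15q the CPM were 557, 562 and 556 in the PEO1 libraries against 364, 366 and 365 in those of PEO4, a ratio of -0.61, with own levels of 0.52 and -0.04. It holds TP53BP1, which directs break repair towards end joining. On 3p from 35 to 43 Mb the ratio was -0.56, with own levels of 0.58 and 0.06. On 7q from 131 to 148 Mb, which holds BRAF, the ratio was -0.52, and on 1q from 186 to 200 Mb it was -0.71.

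Low levels of PEO4 alone were found on 20p, 1q and 4q. On 20p from 0 to 23 Mb the CPM were 415, 415 and 413 in the PEO1 libraries against 198, 198 and 198 in those of PEO4, a ratio of -1.07, with own levels of 0.07 and -0.96. None of the listed genes lies there, and the lowest bin of the arm, at -1.25, holds PLCB1, a phospholipase. On 1q from 231 to 249 Mb the CPM were 409, 405 and 406 in the PEO1 libraries against 199, 198 and 197 in those of PEO4, a ratio of -1.05, with own levels of 0.05 and -0.94. EXO1, an exonuclease of mismatch repair and resection, lies in it. Both ratios were almost the same at 16 µM, -1.04 ± 0.02 on 20p and -1.03 ± 0.02 on 1q (SE, edgeR adjusted p 8.6e-07 and 1.17e-06).

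On 4q the ratio dropped in stages. It was -0.66 from 57 to 74 Mb, -1.35 from 74 to 77 Mb and -1.09 from 77 to 94 Mb. PEO1 was high in the first (0.47) and second (0.39) of these and at its median in the last (0.02), and PEO4 was at its median in the first (-0.06) and low in the others (-0.85 and -0.96). The short middle segment had CPM of 518, 486 and 505 in PEO1 and 196, 202 and 193 in PEO4, and holds the lowest bin of the genome, 75 to 76 Mb at -1.66 ± 0.044 (SE, edgeR adjusted p 5.11e-08), with the EGFR ligand genes EREG, AREG and BTC. The bin before it, at -1.33, holds ALB, AFP and a cluster of CXC chemokine genes with CXCL8. In bins of 10 kb, however, a step cut that bin at 74.31 Mb in AFP. The ratio was -0.64 before the step and -1.46 after it. The value of -1.33 therefore blends both levels, and a gene of that bin can lie at either. The last segment holds HELQ, a helicase of crosslink repair, and ABCG2, a drug efflux transporter.

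At the end of 22q, from 42 to 51 Mb, PEO1 was above its median (0.32) and PEO4 below (-0.99). The CPM were 409, 491 and 483 in the PEO1 libraries against 235, 215 and 236 in those of PEO4, a ratio of -1.01, and with GC correction it was -1.34. The 16 µM libraries gave -1.31 ± 0.18 (SE, edgeR adjusted p 0.00202). This was the only one of the 16 named segments in which GC correction moved the ratio away from 0 by more than 0.2.

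The genes of the lists were read from the bin that holds their midpoint, so a value describes about 1 Mb around the gene. Where a step cuts the bin, the gene itself can lie at another level, as for SOX9, PRKCI and PMS1. Of 184 listed genes with a tested bin, 79 lay in bins called higher and 44 in bins called lower (42.9% and 23.9%), against 23.2% and 35.8% of all bins. The median GC of their bins was 43.4%, against 40.2% over all tested bins. When a call had also to be made with GC correction and at 16 µM, 30 were higher and 17 lower (16.3% and 9.2%), against 13.5% and 9.94% of bins called so. The median ratio was 0.09 over the listed genes and -0.07 over all bins. The 184 genes lay in 169 bins, so genes that share a bin repeat its value. Shares of genes were set against shares of bins, not of all protein-coding genes.

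The shares of each list below stand against 23.2% higher and 35.8% lower over all bins, and 13.5% and 9.94% in all 3 readings. Of 51 oncogenes of serous ovarian cancer, in 47 bins, 28 lay in higher and 10 in lower bins (54.9% and 19.6%). In all 3 readings 14 and 7 were called (27.5% and 13.7%). By their bins, the highest were RECQL4 (2.00), SOX9 (1.25), CCND3 (1.10) and RPS6KB1 (1.09). MECOM and PRKCI (-0.90) and PIK3CA (-0.82) were among the lowest. SOX9 and PRKCI themselves lay on the side of a step where the ratio was nearer 0. CCNE1, the cyclin of S phase entry on 19q, had CPM of 311, 378 and 363 in PEO1 and 442, 404 and 441 in PEO4, a ratio of 0.29 that was 0.12 with GC correction and 0.10 at 16 µM.

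Of 36 tumour suppressors with a tested bin, 16 lay in higher and 6 in lower bins (44.4% and 16.7%). Only 3 higher and 1 lower (8.3% and 2.8%) were called in all 3 readings. LRP1B, on 2q, was the highest at 0.60 (0.77 at 16 µM), and KMT2C, a histone methyltransferase gene on 7q, was the lowest at -0.33 (-0.48 at 16 µM). CSMD1 (-0.18) and PTPRD (-0.17) were not called at 16 µM. STK11, AXIN1 and TSC2, in bins of 55% to 59.1% GC, were at 0.44, 0.43 and 0.35 untreated, but at -0.41, -0.29 and -0.22 with GC correction, and were not called at 16 µM. For these 3 genes the direction between the lines depended on the correction.

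Of 37 genes of homologous recombination and the Fanconi anaemia pathway, 14 lay in higher and 11 in lower bins (37.8% and 29.7%). In all 3 readings 7 and 6 were called (18.9% and 16.2%). RAD51C (1.10), FANCE (1.07), RAD50 (0.97) and RIF1 (0.82) were the highest, and HELQ (-1.06), ATR (-0.66), TP53BP1 (-0.52) and UBE2T (-0.45), the conjugating enzyme of the Fanconi pathway, the lowest. The bin of RAD51C (chromosome 17, 56769934 to 56812972) had CPM of 198, 223 and 214 in PEO1 and 461, 444 and 461 in PEO4, so its libraries did not overlap. The bin of HELQ (chromosome 4, 84328496 to 84377008) had 431, 411 and 424 in PEO1 and 196, 203 and 209 in PEO4. Genes of the same pathway thus lay in segments that differed in opposite directions.

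Of 19 genes of excision and mismatch repair, 6 lay in higher and 5 in lower bins (31.6% and 26.3%). In all 3 readings 1 was called higher and 2 lower (5.3% and 10.5%), among them the bins of PMS1 (0.27) and EXO1 (-1.17). A step at 190.51 Mb cuts the bin of PMS1, with a ratio of 0.77 before it and -0.14 after it. PMS1 itself (190648811 to 190742355) lies after that step. ERCC1 and ERCC2, subunits of the nucleotide excision repair machinery that share a bin on 19q, had 0.44 untreated, 0.06 with GC correction and 0.12 at 16 µM. ERCC8 (-0.16) and ERCC5 (-0.13) were called lower only in part of the readings, as was DDB1 (0.27) higher.

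Of 23 genes of platinum transport and detoxification, 8 lay in higher and 7 in lower bins (34.8% and 30.4%). In all 3 readings 3 were called higher and 1 lower, and neither share was above that of all bins. The genes called in all 3 readings were LRRC8A (1.26), GCLC (0.87), the catalytic subunit of glutathione synthesis, NFE2L2 (0.79) and ABCG2 (-1.02). The LRRC8A bin had 51.4% GC and 0.89 with correction. KEAP1, the partner that keeps the NFE2L2 protein low, lies on 19p and was at 0.47 untreated but 0.06 with GC correction and 0.13 at 16 µM. GCLM, the other subunit of glutathione synthesis, was at -0.18, and the cation transporter gene SLC22A2 at -0.17. Of 18 apoptosis genes, 7 lay in higher and 5 in lower bins (38.9% and 27.8%). Only BAK1 (1.20) and BIRC5 (0.96) were called in all 3 readings (11.1%). TP73 (0.89) and BAX (0.46), which promote apoptosis, were at 0.24 and 0.11 at 16 µM, and FAS, a death receptor gene, was the lowest of the list at -0.20.

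**Figure D4:**
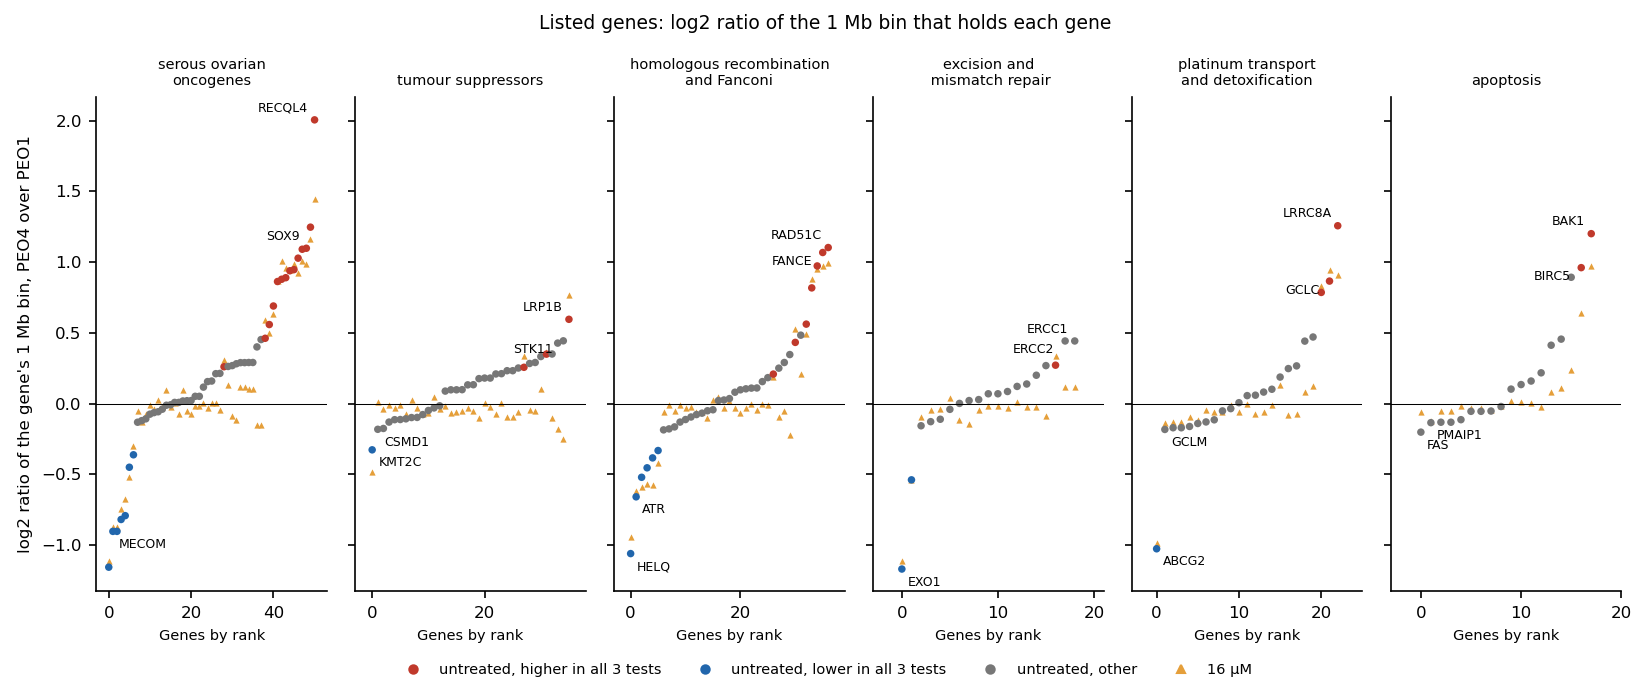
Each circle is 1 listed gene with a tested bin, ranked within its list, with the log2 ratio of its 1 Mb bin in untreated PEO4 over PEO1. Red and blue circles were called in the same direction in the untreated libraries, with GC correction and at 16 µM, and orange triangles give the 16 µM ratio: in the middle of each list the circles form a slope while the triangles stay near 0.

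Several of the best known genes of this cancer lay in segments at the same level in both lines. RB1, which restrains S phase entry, and BRCA2, a gene of homologous recombination, were in 13q from 32 to 112 Mb, with an own level of -0.96 in both lines. BRCA1, NF1, a brake on RAS, and CDK12, a kinase of transcription, were in 17q from 25 to 43 Mb, at -0.50 in PEO1 and -0.49 in PEO4. Segments were cut on the ratio, so this is a mean over bins of unlike level. Over the untreated libraries of both lines, the NF1 bin had 190 to 228 CPM. The BRCA1 bin had 387 to 516 and the CDK12 bin 368 to 503. The own levels of these 2 segments at 16 µM were within 0.02 of the untreated ones in each line.

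The bins of these genes differed little. RB1 had a ratio of -0.11 (edgeR adjusted p 0.0698), and BRCA2 had -0.11, BRCA1 0.18, NF1 0.13 and CDK12 0.21, the last 4 called untreated at an edgeR adjusted p of 0.0313 to 0.0499, and not called at 16 µM. For BRCA1 and CDK12 the ratio was -0.01 and 0.01 with GC correction. Among the 88 uncounted segments, 20 (519 Mb) were at least 0.5 below the median in both lines, among them 4q from 94 to 191 Mb, 9p from 0 to 33 Mb, 16q from 59 to 84 Mb and 22q from 16 to 42 Mb, and 1 was at least 0.5 above in both. That one was 11q from 61 to 78 Mb, with own levels of 0.55 and 0.53, and it holds CCND1, a G1 cyclin, and EMSY, RSF1 and PAK1.

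Of the steps of at least 0.3 between neighbouring segments, 49 on 22 arms were placed in bins of 10 kb within 3 Mb. The position from the 16 µM libraries, which the search in the untreated libraries had not used, lay within 10 kb in 40 cases and within 100 kb in 46, with a median distance of 0 kb. The 3 others were on 1p, at 920 and 160 kb, and on 12p in ANO2, at 2140 kb. Protein-coding genes held 26 of the 49 steps. This placing was added after the data were seen.

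Many steps lay in or beside known genes, and some of them are given here. A 4q step lay at 74.31 Mb in AFP, the alpha-fetoprotein gene. On 5q steps lay at 130.75 Mb, 9.6 kb from RAPGEF6, and at 138.23 Mb in CTNNA1, which encodes alpha-catenin. On 9q they lay at 125.96 Mb in STRBP and at 133.54 Mb in PRDM12. Of those on 17q, 3 lay at 54.01 Mb in ANKFN1, at 58.42 Mb in USP32, and at 70.26 Mb, 137.4 kb beyond SOX9. Those on 18q at 50.97 Mb in DCC, a netrin receptor and listed tumour suppressor, on 20q at 41.12 Mb in PTPRT, on 6q at 82.90 Mb in IBTK and on 22q at 41.75 Mb in ZC3H7B were placed at the same 10 kb in the 16 µM libraries. On 2q the segment of LRP1B and RIF1 began at 140.74 Mb, 249 kb from LRP1B, and ended at 190.51 Mb.

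**Figure D5:**
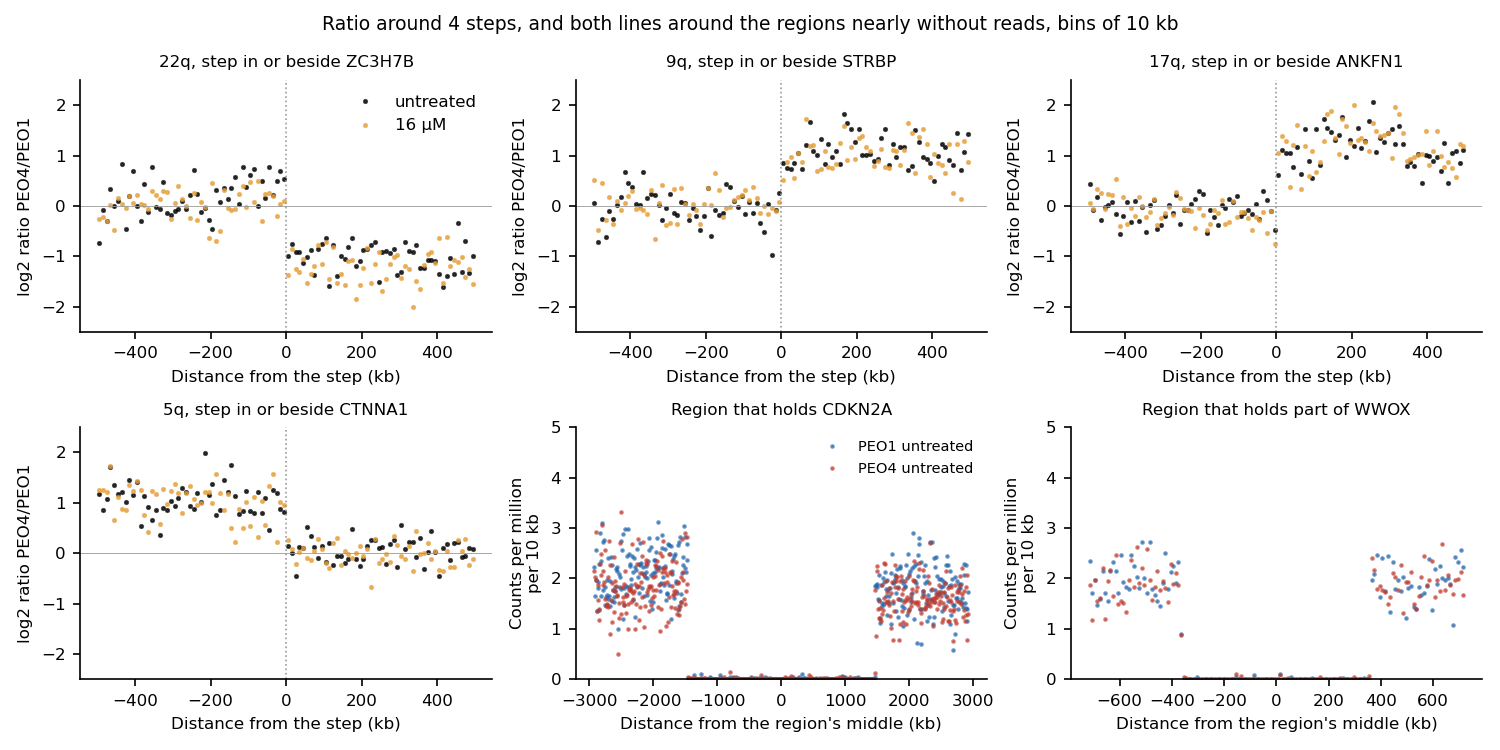
The first 4 panels show the log2 ratio of PEO4 over PEO1 in bins of 10 kb by distance in kb from 4 steps, untreated (black) and at 16 µM (orange), with the level changing at the dotted line in both. The last 2 panels show CPM per 10 kb in each untreated line by distance from the middle of the regions with CDKN2A and with part of WWOX, where both lines drop to nearly 0.

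For the 2 listed genes without a tested bin, CDKN2A and WWOX, most windows of the bin had no read in either line. CDKN2A encodes the cell cycle inhibitors p16 and ARF. Its bin held 29, 20 and 18 counts in the PEO1 libraries and 28, 19 and 12 in the PEO4 libraries, where the median tested bin held at least 12037 in every untreated library. At 10 kb the region nearly without reads ran from 20.92 to 23.85 Mb on chromosome 9 (2930 kb) with the same edges in all 5 groups, at 0.154% of the median level in both untreated lines. It contains 23 named protein-coding genes, among them CDKN2B, another cell cycle inhibitor, MTAP, an enzyme of methionine salvage, and type I interferon genes, and its left edge lies in FOCAD.

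An inner part of WWOX, which spans a common fragile site, was nearly without reads too. The region nearly without reads ran from 78.15 to 78.87 Mb on chromosome 16 (720 kb), inside the gene at 78133297 to 79246564, again with the same edges in all 5 groups. Its level was 0.173% of the median in untreated PEO1 and 0.23% in untreated PEO4. All libraries of the series came from these 2 lines, so no other DNA showed how many reads the method gives in either region.

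No arm ratio was called different between treated and untreated libraries. The line difference at 16 µM minus that in untreated cells was called on 0 of 39 arms (0%) by edgeR, with 1 arm (2.56%) at an unadjusted p under 0.05 and a smallest adjusted p of 0.404. The interaction was -0.29 on 19p, -0.21 on 22q, -0.19 on 19q and -0.18 on 17q, and between -0.11 and 0.09 on the other 10 of the 14 arms. Over 2665 bins the untreated and 16 µM ratios had a Pearson r of 0.938, and 0.990 with both GC corrected, as a description of bins that share libraries and neighbours. The 9 treated libraries carry adduct signal that was not separated from copy number.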

How the data were processed

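The authors aligned single-end reads, trimmed by BBDuk, to hg19 (bowtie2) and took out blacklisted regions and duplicates (Picard). They deposited raw counts per window of 1 kb stepped by 900 bp. Neighbouring windows overlap, so some reads may have been counted in both, which was not checked. No value was normalised. Versions were not given in the sources used here. The table held 3439652 windows, 3201158 of them on chromosomes 1 to 22, and the last windows of all 22 autosomes end at GRCh37 lengths.

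Windows were summed by midpoint into bins of 1 Mb and into arms, split at the longest run of windows without reads. The test was edgeR's quasi-likelihood one (version 4.0.16, R 4.3.3), with library totals as offset and no TMM factors, on the 6 untreated libraries, with Benjamini-Hochberg adjustment over all tested bins or arms. Segments came from least-squares partitioning of the log2 bin ratios within arms (0.5 added to counts, penalty of 25 times the noise variance, at least 3 bins) and were tested in the 16 µM libraries. The GC correction was quadratic and fitted per library within arms. Gene positions came from GENCODE 44 on GRCh37. The named genes were 12 chosen for this cancer plus the 4 highest and 4 lowest called genes of each list, the 8 highest and 8 lowest counted segments, and the 5 highest and 5 lowest bins. Some listed genes are not reported here by name. Members and lists were chosen with earlier results of these data known. Alternatives were TMM factors, DESeq2 1.42.0, GC correction, no filter, all 15 libraries, a replicate block, leaving out libraries, and other bin sizes, penalties and limits. The test and the segmentation were tested on simulated data. Counting error and library spread limit precision; 3 libraries a group were available.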

Additional observations from a re-analysis of the deposited data

How the results depend on the processing

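The 14 arms of at least 0.2 became 13 to 15 under every alternative run, and the counted segments (70) ranged from 55 (GC correction) to 90 (penalty 12), and from 60 to 79 without 1 library. The count of called bins (1570) depended more on the setting: it was 952 (420 higher, 532 lower) with all 15 libraries in 1 fit, and 998 to 1670 without 1 library, with 998 without PEO4 replicate 1 and 1007 without PEO4 replicate 3. It was 2700 of 5334 in bins of 500 kb and 9033 of 26516 in bins of 100 kb, 1205 with TMM factors and 1307 with DESeq2 (57.2% higher). With a GC correction added after seeing the data, the 16 µM test called 120 segments (47 higher, 73 lower) in place of 57 and 1163 bins in place of 625. Without 1 library, 46 to 58 segments were called at 16 µM. The interaction called 0 arms under every alternative run, with a smallest adjusted p of 0.25 to 0.633.

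Replicate numbers did not pair the libraries: deviations of same-numbered untreated libraries correlated at -0.491, -0.773 and 0.449. After GC correction these correlations were -0.005, -0.075 and -0.023. With the replicate block, 1270 bins, 14 arms, 38 segments at 16 µM and 0 interactions were called.

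Of 1028 alternative values for the named genes, arms, segments and bins, 928 kept their direction and side of the limit and 72 lost a call, 33 of them without 1 library. The 5 that reversed did so with GC correction: STK11 (-0.41), TSC2 (-0.22), AXIN1 (-0.29), BRCA1 (-0.01) and DDB1 (-0.05). The cause of these moves was not tested. Own levels and held segments rest on the GC correction. Steps under 3 bins of 1 Mb are not resolved, and a subclone cannot be told apart from a smaller copy difference.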
